A study of Mus musculus with 8 samples.

Results

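The genes described here encode RNA polymerase II and the complexes that place it at promoters: the general transcription factors, TFIID with its TATA-binding protein, and Mediator. Members were chosen by symbol, as all genes whose symbol begins with Polr2 or Gtf2, those with Med or Taf followed by a digit, and Tbp and Tbpl2, without pseudogenes. This gave 84 of the 37310 gene identifiers in the count tables, 83 of them protein coding and 1 an antisense RNA, Med9os. By role they were 13 RNA polymerase II subunits, 11 general factors of the TFIIA, TFIIB, TFIIE, TFIIF and TFII-I families and 5 TFIIH subunits. The other protein-coding members were 18 genes of the TFIID role, 6 TAF proteins of other complexes and 30 Mediator subunits. Tbpl2, which encodes a relative of TBP, was counted in the TFIID role. Taf1a had no entry in the tables under that symbol.

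RNA was measured in 4 pools of wild-type and 4 pools of DKO mouse embryos at the 2-cell stage, all of the C57BL/6N strain. DKO embryos were double mutants for the stress-response genes Gadd45a and Gadd45b, bred from 2 single knockout lines. Each pool held 23 to 35 embryos of 1 litter, taken 20 h after the vaginal plug, and every mother was a superovulated, naturally mated female aged 3 to 4 weeks of the same genotype as its embryos. Loss of the maternal and of the embryonic gene product cannot be told apart in this design, and the deleted parts of the alleles are not given in the sources used here.

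At the promoter, TFIID binds DNA through TBP and its TAF subunits, TFIIA and TFIIB steady it, and TFIIF brings in the polymerase. TFIIE and TFIIH then open the DNA, and Mediator links the machinery to factors bound at enhancers. The mouse 2-cell embryo is where the embryonic genome is switched on in its major wave, using a transcription machinery that is at first supplied by the egg. GADD45A has been described to act with TAF12, a TFIID subunit, at ribosomal DNA promoters. The RNA of this machinery was therefore compared between DKO and wild-type embryos.

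Libraries held 21329736 to 23919114 counts each, of which 1.42% to 1.54% fell on the members. Gadd45b checked the labels: it stood at 39.3, 43.5, 62.3 and 36.1 CPM (counts scaled to the TMM-corrected library total) in the wild-type pools and at 0.179, 0.615, 0.0442 and 0.267 CPM in the DKO pools. The edgeR fit gave it a log2 fold change (DKO over wild-type) of −7.33 ± 0.42, where ± is here and for every later fold change the SE of that fit (adjusted p = 5.63e-07). Gadd45a had −1.09 ± 0.22 (adjusted p = 0.303 in edgeR and 0.000676 in DESeq2), and since its deleted part is not known here, its remaining reads check nothing about the label. DKO replicate 1 was the most divergent library: its quality weight in limma-voom was 0.365 against 0.786 to 2.08 in the other 7. The summed level of all 9 oocyte markers was 9320 CPM in that library. It was 5960 to 6220 CPM in the other DKO pools and 3970 to 6030 CPM in the wild-type pools. Omt2a made up much of this sum, with a mean of 3650 CPM over the 8 libraries. The 9 markers of the 2-cell embryo summed to 1820 to 2130 CPM in wild-type and 1650 to 2180 CPM in DKO, with none at 0. Of the 9 cumulus and granulosa cell markers Ptx3, Amh, Foxl2 and Inhba were at 0 in all libraries, and the list summed to 8.78 to 13 CPM in wild-type and 7.95 to 13.3 CPM in DKO. The 7 sperm markers summed to at most 2.37 CPM in any library. The oviduct markers summed to 195 to 317 CPM in wild-type and 159 to 240.0 CPM in DKO, with Epcam highest. The blood markers summed to 5.93 to 47.7 CPM in wild-type and 8.23 to 62.2 CPM in DKO. The part of oocyte RNA content in the results below was not tested. In pooled embryos fewer cells of a kind and less RNA per cell cannot be told apart.

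No member passed edgeR's quasi-likelihood test at an adjusted p of 0.05 in either direction. Across all 14970 genes tested the same test called 1 gene higher in DKO (0.00668%) and 3 lower (0.02%), and DESeq2 called 49 of 14743 genes (0.332%), none of them a member. Limma-voom also called no member. Of the 84 members 83 passed the filter on low counts. The smallest edgeR adjusted p among them was 0.469, and the smallest in DESeq2 was 0.202.

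At an unadjusted edgeR p under 0.05, 11 members were lower and 3 higher in DKO, 16.9% of those tested. The same threshold took 4.44% of all genes tested on the lower side and 5.79% on the higher side, 10.2% in all. The 11 with lower values were Gtf2h3, Med21, Taf1b, Polr2m, Med20, Gtf2i, Med18, Gtf2h4, Gtf2e2, Taf8 and Med8, and the 3 with higher values were Taf3, Tbpl2 and Taf4. The median log2 fold change of the members was −0.08 against 0.01 for all genes, and 49 of 83 members (59.0%) had a negative value against 48.8% of all genes. Without DKO replicate 1 the member median was −0.04, 50 were negative, and 4 members were lower and 0 higher at unadjusted p, with 3.25% and 2.46% of all genes. The lower count also moved to 4, 5 and 4 without wild-type replicates 1, 2 and 4, where the share of all genes was 3.15%, 2.91% and 3.19%. The higher count moved to 8 without DKO replicate 2 (7.32% of all genes) and to 0 without wild-type replicate 2 (3.74%). It was 1 without wild-type replicate 1, 3 or 4 (4.73%, 6.85% and 3.5% of all genes), and limma-voom gave 0 (5.9%).

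**Figure D1:**
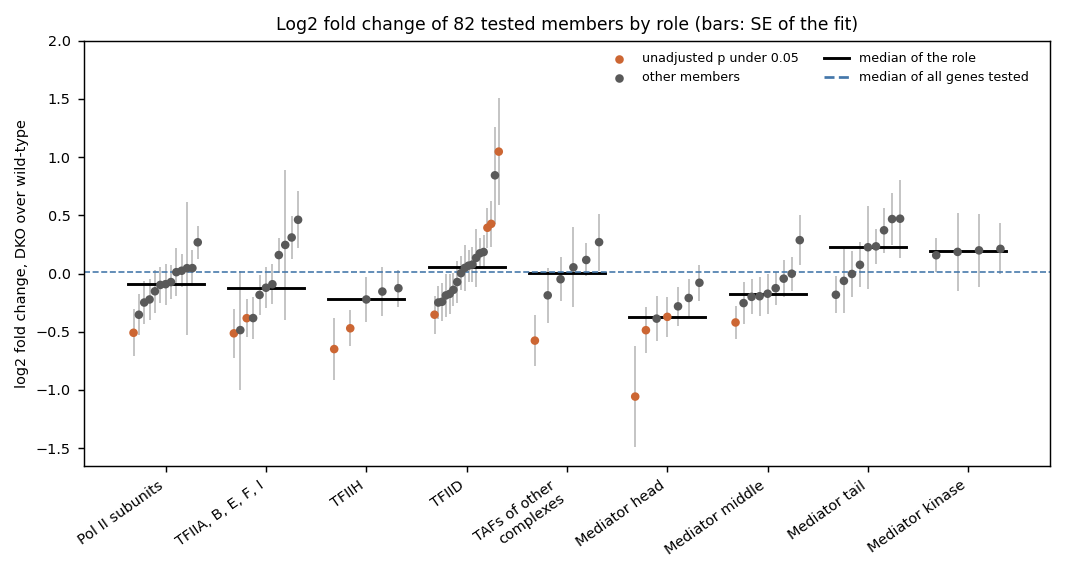
Log2 fold change of DKO over wild-type (vertical axis) for each of the 82 tested protein-coding members, grouped by role. Points are genes with the SE of the edgeR fit, orange points have an unadjusted p under 0.05, black lines are role medians and the dashed line is the median of all genes tested (0.01). The medians of the Mediator head (−0.37), the Mediator middle (−0.17) and TFIIH (−0.22) lie below the dashed line, and those of the Mediator tail (0.23) and kinase module (0.19) above it.

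In 3 members the 4 DKO pools and the 4 wild-type pools did not overlap: Med21 and Gtf2h3 were lower in every DKO pool and Taf10 was higher in every one. Among all genes tested 2.55% were separated in this way with lower and 2.79% with higher values in DKO, against 2 and 1 of 83 members. Without DKO replicate 1 the counts were again 2 and 1, with 3.34% and 3.36% of all genes. Comparing 3 pools with 4, where separation is easier, gave 14, 10 and 6 lower members without wild-type replicate 3, DKO replicate 2 and DKO replicate 4, beside 6.69%, 5.69% and 4.37% of all genes. The higher count was 5 without DKO replicate 3 (4.78% of all genes), and 3 without DKO replicate 2 or wild-type replicate 2 (6.28% and 3.88%). It was 2 without DKO replicate 4 or wild-type replicate 3 (4.83% and 6.47%).

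Med21 (ENSMUSG00000030291, chromosome 6) encodes a subunit of the Mediator middle module that pairs with MED7. It measured 191, 239, 255 and 269 CPM in the wild-type pools and 171, 182, 179 and 181 CPM in the DKO pools. The DKO values lay close together, and the lowest wild-type pool, replicate 1, was nearest to them. The means were 239 ± 34.03 CPM in wild-type and 178 ± 4.76 CPM in DKO (SD, n = 4 each). The log2 fold change was −0.42 ± 0.14 (adjusted p = 0.469 in edgeR). Without DKO replicate 1 it was −0.41. Med21 lies on the same chromosome as Gadd45a, 79.6 Mb away on GRCm38.

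Gtf2h3 (ENSMUSG00000029387, chromosome 5) encodes the p34 subunit of the TFIIH core, which also works in nucleotide excision repair. Its values were 95.6, 99.6, 91.3 and 120.1 CPM in the wild-type pools and 61.5, 74.98, 72.7 and 84.4 CPM in the DKO pools. The gap between the genotypes lay between DKO replicate 4 and wild-type replicate 3. The log2 fold change was −0.47 ± 0.15 (adjusted p = 0.469 in edgeR), the smallest p of all members, and −0.40 without DKO replicate 1.

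Taf10 (ENSMUSG00000043866, chromosome 7) encodes a histone-fold subunit shared by TFIID and the coactivator SAGA. It measured 177, 204, 209 and 183 CPM in the wild-type pools and 219, 209.8, 221 and 223 CPM in the DKO pools. The genotypes were separated by less than 1 CPM, between wild-type replicate 3 and DKO replicate 2, and the log2 fold change was 0.17 ± 0.13 (adjusted p = 0.62 in edgeR). Of the annotated exon bases of Taf10, 45.9% are shared with Ilk on the other strand, and Ilk itself had 3 counts over all 8 libraries.

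The promoters of these 3 genes are shown because they are the members whose pools separate, 2 with lower and 1 with higher values in DKO. Each line gives the bases from 150 to 41 before the annotated transcript start, 5′ to 3′ on the gene's strand, from RefSeq on GRCm38.p6. Capitals mark a CRE (TGACGTCA), a GC box (GGGCGG or its reverse complement) or a CCAAT box (CCAAT or its reverse complement).
Med21, chr6:146642429-146642538, plus strand: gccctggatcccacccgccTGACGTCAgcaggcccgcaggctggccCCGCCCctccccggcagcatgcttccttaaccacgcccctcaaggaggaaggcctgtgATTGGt
Gtf2h3, chr5:124578998-124579107, plus strand: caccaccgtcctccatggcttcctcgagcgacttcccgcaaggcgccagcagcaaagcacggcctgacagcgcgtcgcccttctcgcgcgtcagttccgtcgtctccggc
Taf10, chr7:105744379-105744488, minus strand: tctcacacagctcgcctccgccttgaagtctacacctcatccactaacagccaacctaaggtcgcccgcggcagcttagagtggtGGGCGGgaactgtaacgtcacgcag
The Med21 window holds all 3 motifs, the Taf10 window a GC box, and the Gtf2h3 window none of these letters.

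Over the 250 bases before the start, 72 of 84 members matched a promoter, and 5 motifs were searched on both strands. The GC box GGGCGG was present in 65.3% of them against 35.4% of 27025 gene promoters, and the ETS core CCGGAAG in 23.6% against 7.83%. The TATA box TATAAA was present in 16.7% against 14.3%, and CCAAT in 34.7% against 37.5%. The CRE TGACGTCA was found in Gtf2f1, Med21 and Taf11, or 4.17% of members against 1.77% of all promoters. Members' promoters had a median GC content of 60.2%, and all promoters 52.4%, and the shares above are not adjusted for this. A match is a description of the sequence.

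**Figure D2:**
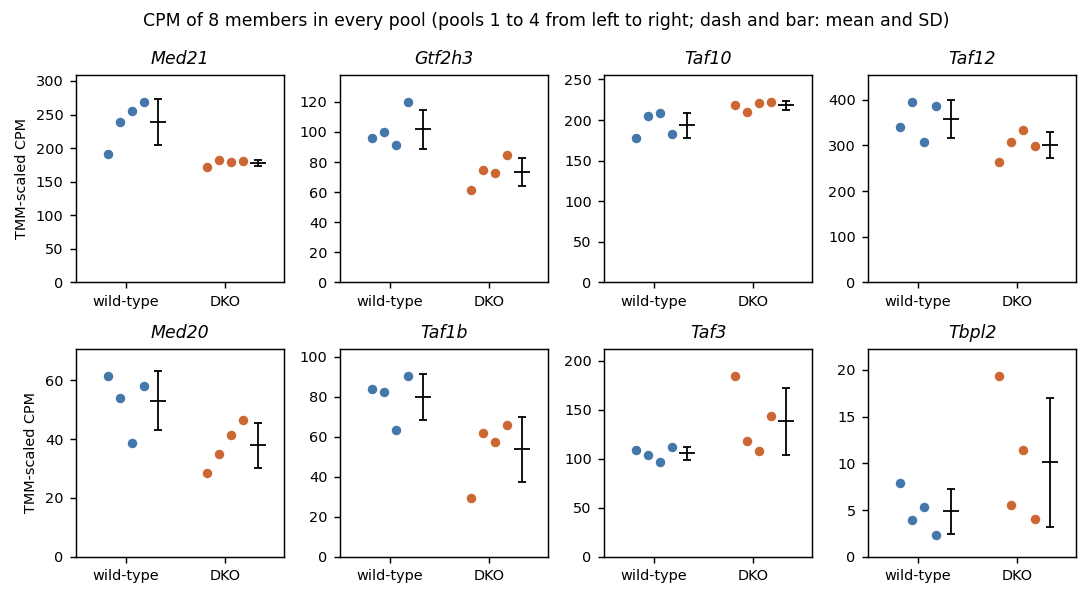
Level in TMM-scaled CPM (vertical axis, from 0) of 8 members in each pool, with pools 1 to 4 from left to right in each genotype and the mean and SD beside them. Med21 and Gtf2h3 lie lower and Taf10 higher in every DKO pool, and the DKO pools of Taf12, Med20, Taf1b, Taf3 and Tbpl2 overlap the wild-type pools.

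The 13 RNA polymerase II subunits had a median log2 fold change of −0.09, with 8 negative values. At unadjusted p under 0.05 there was 1 (7.69%), against 10.2% of all genes tested. The median was −0.04 with 10 negative values when DKO replicate 1 was left out, and no subunit was then under that threshold. Polr2a, the largest subunit, whose C-terminal repeats are phosphorylated during transcription, measured 36.2, 22.8, 27.8 and 35.2 CPM in the wild-type pools and 27.7, 26.2, 29.4 and 26.6 CPM in the DKO pools. The DKO pools lay inside the wild-type range, with a log2 fold change of −0.15 ± 0.19 (adjusted p = 0.77 in edgeR). Polr2d, a subunit of the stalk that touches the emerging RNA, measured 787, 685, 580.3 and 892 CPM in the wild-type pools and 442, 729, 614 and 692 CPM in the DKO pools. Only DKO replicate 1 was below all wild-type pools, and the log2 fold change of −0.25 ± 0.18 became −0.12 without it.

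Polr2m encodes GDOWN1, a protein that binds the polymerase and holds it back from some promoters unless Mediator is present. It had the lowest fold change and the smallest p of the polymerase genes, at 45.1, 37.1, 30.3 and 39.4 CPM in the wild-type pools and 18.8, 32.6, 29.5 and 25.8 CPM in the DKO pools. DKO replicates 1, 3 and 4 lay below all wild-type pools and DKO replicate 2 above the lowest, a log2 fold change of −0.51 ± 0.20 (adjusted p = 0.469 in edgeR). Polr2c, which forms the assembly core with Polr2j, had the highest value of the subunits, 0.27 ± 0.14 (adjusted p = 0.506 in edgeR). Its pools measured 450.4, 496, 539 and 467 CPM in the wild-type pools and 669, 513, 609 and 559 CPM in the DKO pools, and DKO replicate 2 lay inside the wild-type range and the other DKO pools above it. The subunits shared with RNA polymerases I and III, namely Polr2e, Polr2f, Polr2h, Polr2k and Polr2l, had log2 fold changes of −0.22, −0.07, −0.10, 0.01 and −0.09. Polr2e lies 0.89 Mb from Gadd45b on chromosome 10 of GRCm38.

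Polr2b, the second-largest subunit and part of the active centre, had only 102 counts over all 8 libraries. Its level was 0.492 to 0.643 CPM in the wild-type pools and 0.492 to 0.712 CPM in the DKO pools. Every polymerase II needs this subunit, and only 1.8% of its exon bases overlap another annotated gene. This value is therefore given as a deposited count and not read as the level of the RNA.

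The 11 other general factors had a median of −0.12, with 7 negative values, and −0.06 with 6 negative without DKO replicate 1. Gtf2i, a DNA-binding factor of the TFII-I family, had the smallest p, at 37.5, 37.5, 26.2 and 41.3 CPM in the wild-type pools and 17.1, 29.1, 27.1 and 26.4 CPM in the DKO pools. Only DKO replicate 1 lay below the lowest wild-type pool, and the log2 fold change was −0.51 ± 0.21 (adjusted p = 0.47 in edgeR). Its relative Gtf2ird1 had the highest value of the role, 0.46 ± 0.25 (adjusted p = 0.509 in edgeR), with 21.1 CPM in DKO replicate 1 and 10.5 to 13.7 CPM in the other DKO pools against 8.58 to 11.8 CPM in wild-type. Its log2 fold change was 0.21 without DKO replicate 1.

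TFIIE, which recruits TFIIH, has subunits encoded by Gtf2e1 and Gtf2e2, and both had negative values. Gtf2e2 measured 187, 218, 177 and 235 CPM in the wild-type pools and 122, 187, 154 and 163 CPM in the DKO pools, with DKO replicates 1, 3 and 4 below all wild-type pools, and its log2 fold change was −0.38 ± 0.16 (adjusted p = 0.471 in edgeR). The value of Gtf2e1 was −0.38 ± 0.18 (adjusted p = 0.489 in edgeR), at 42.9 to 75.0 CPM in wild-type and 39.3 to 49.97 CPM in DKO. Gtf2b, the single-chain factor TFIIB that bridges TBP and the polymerase, measured 181, 210.4, 262 and 146 CPM in the wild-type pools and 191, 170.1, 205 and 169 CPM in the DKO pools. The DKO pools lay within the wild-type range, and the log2 fold change of −0.12 ± 0.17 was 0.03 without wild-type replicate 3. The TFIIF genes Gtf2f1 and Gtf2f2 had values of −0.09 and −0.18, and the TFIIA genes Gtf2a1 and Gtf2a2 had 0.16 and 0.31 (0.02 and 0.11 without DKO replicate 1).

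All 5 TFIIH genes of the list had negative log2 fold changes, against 48.8% of all genes tested, with a median of −0.22. DKO replicate 1 was the lowest library for 4 of the 5, and the median without it was −0.08, with all 5 again negative. Of all genes tested 4.44% were lower at unadjusted p under 0.05. The 2 TFIIH genes under that threshold were Gtf2h3, described above, and Gtf2h4, which encodes the p52 subunit that anchors the XPB helicase. Gtf2h4 measured 19, 14.8, 10.9 and 17.3 CPM in the wild-type pools and 9.43, 7.99, 14.9 and 7.16 CPM in the DKO pools, and DKO replicate 3 lay within the wild-type range and the other 3 below it. In the fit it had a log2 fold change of −0.65 ± 0.27 (adjusted p = 0.471 in edgeR), and −0.64 without DKO replicate 1. Gtf2h1, Gtf2h2 and Gtf2h5 had −0.22 ± 0.19, −0.15 ± 0.21 and −0.13 ± 0.16, and their pools overlapped.

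The remaining TFIIH subunits, the helicases Ercc2 and Ercc3 and the kinase module of Cdk7, Ccnh and Mnat1, are not members by symbol and were listed as partners. All 5 were negative, with a median of −0.32 and none at unadjusted p under 0.05, and without DKO replicate 1 the median was −0.19 with 4 of 5 negative. Cdk7, the kinase of the polymerase's C-terminal repeats, had the smallest p, with 309.7, 321, 283 and 402 CPM in the wild-type pools and 180.3, 321, 275 and 246 CPM in the DKO pools. DKO replicate 2 lay inside the wild-type range and the others below it, a log2 fold change of −0.36 ± 0.18 (adjusted p = 0.49 in edgeR).

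The 18 TFIID genes, counting Tbpl2, had a median of 0.06, with 11 positive and 7 negative values. At unadjusted p under 0.05, 3 were higher and 1 lower, 22.2% against 10.2% of all genes tested. Without DKO replicate 1 the median was 0.02, with 9 negative values, and none of the 18 was under that threshold. Taf12, whose product pairs with TAF4 through a histone fold and is the TFIID subunit described to act with GADD45A, measured 341, 396, 308 and 387 CPM in the wild-type pools and 264, 308, 334 and 299 CPM in the DKO pools. DKO replicates 1, 2 and 4 lay below all wild-type pools, DKO replicate 2 by less than 1 CPM, and DKO replicate 3 lay inside their range. The means were 358 ± 40.9 and 301 ± 28.8 CPM (SD, n = 4 each), and the log2 fold change was −0.25 ± 0.14 (95% interval −0.56 to 0.06, adjusted p = 0.535 in edgeR). The interval excludes a fall by 1 on the log2 scale and includes 0.

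Its partner Taf4 had the opposite sign. Taf4 measured 42.7, 47.02, 49.7 and 45.95 CPM in the wild-type pools and 89.5, 52.6, 45.8 and 61.4 CPM in the DKO pools, with DKO replicate 1 far above the rest and DKO replicate 3 below the wild-type median. This gave a log2 fold change of 0.43 ± 0.20 (adjusted p = 0.484 in edgeR), and 0.19 without DKO replicate 1. Taf3, which reads trimethylated lysine on histone H3 through its PHD finger, had a similar pattern at 109, 104, 96.6 and 112 CPM in the wild-type pools and 184, 118, 108 and 144 CPM in the DKO pools. DKO replicates 1, 2 and 4 lay above all wild-type pools, and the log2 fold change of 0.39 ± 0.17 (adjusted p = 0.476 in edgeR) became 0.22 without DKO replicate 1.

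Taf8, the partner of TAF10, was the TFIID gene with the lowest value, −0.35 ± 0.16 (adjusted p = 0.482 in edgeR). It measured 57.5, 61.4, 52.1 and 68.8 CPM in the wild-type pools and 42.96, 55.9, 47.05 and 41.7 CPM in the DKO pools, with DKO replicate 2 inside the wild-type range and the other 3 below it. The scaffold subunits Taf1 and Taf2 had −0.07 ± 0.18 and −0.14 ± 0.14, Taf5 and Taf6 had 0.19 ± 0.14 and 0.05 ± 0.20, and Taf7 and Taf9 had −0.24 ± 0.16 and −0.17 ± 0.17. Taf11 and Taf13, which form a histone-fold pair, had 0.00 and 0.07. Taf9 shares 73.8% of its exon bases with Ak6 on the same strand, so its counts are uncertain.

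TBP has a relative, TBPL2 (also called TRF3), that takes its place in growing oocytes. Tbp measured 401, 365, 299 and 432 CPM in the wild-type pools and 228, 318, 363 and 404 CPM in the DKO pools, and Tbpl2 measured 7.94, 3.95, 5.36 and 2.28 CPM in the wild-type pools and 19.4, 5.53, 11.4 and 4.09 CPM in the DKO pools. For Tbp only DKO replicate 1 lay below the wild-type pools, and for Tbpl2 DKO replicates 1 and 3 lay above them. The log2 fold changes were −0.19 ± 0.18 for Tbp and 1.05 ± 0.46 for Tbpl2 (adjusted p = 0.71 and 0.476 in edgeR). Without DKO replicate 1, the library with the highest oocyte marker sum, they were −0.06 and 0.52. Per kb of exon, Tbpl2 made up 16.3%, 9.64%, 15% and 4.94% of the pair in the wild-type pools and 45.5%, 14.6%, 23.7% and 9.07% in the DKO pools. These shares rest on annotated exon lengths of 13576 bases for Tbp and 1379 for Tbpl2. The longer length of Tbp lowers its level per kb, so the Tbpl2 shares are larger per kb than in CPM. Of the Tbp exon bases 19% lie opposite Pdcd2, which was listed at 0 counts in all 8 libraries. The shares overlapped between genotypes, and Tbp was the more abundant of the pair in all 8 pools, in CPM and per kb.

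The upstream windows of Taf12, Tbp and Tbpl2 are shown to compare the partner of GADD45A and the widely used with the oocyte form of the TATA-binding protein. They cover the same positions from the start as those above, and capitals mark a GC box.
Taf12, chr4:132274225-132274334, plus strand: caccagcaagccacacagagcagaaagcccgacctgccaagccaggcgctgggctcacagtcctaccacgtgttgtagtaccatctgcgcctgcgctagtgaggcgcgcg
Tbp, chr17:15499738-15499847, plus strand: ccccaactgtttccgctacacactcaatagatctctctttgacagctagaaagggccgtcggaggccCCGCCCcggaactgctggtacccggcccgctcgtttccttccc
Tbpl2, chr2:24096636-24096745, minus strand: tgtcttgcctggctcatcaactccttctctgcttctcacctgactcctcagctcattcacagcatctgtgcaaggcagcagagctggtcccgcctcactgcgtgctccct
Of these windows only that of Tbp holds any of the 5 motifs. GC content over 250 bases was 52.8% for Tbpl2, close to the median of all promoters (52.4%).

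Other TFIID genes also have a copy with a more restricted use. Taf4b, a gonadal form of Taf4, made up 78.7%, 72.4%, 73.7% and 77.4% of its pair per kb in wild-type and 63.8%, 77.1%, 74.8% and 69.4% in DKO. Here the restricted form was the more abundant in all 8 pools, and the genotypes overlapped. Taf7l, known from germ cells, reached at most 1.27% of its pair with Taf7, in DKO replicate 1, and its log2 fold change was 0.84 ± 0.42 (adjusted p = 0.489 in edgeR). Taf9b reached 2.7% to 6.5% of its pair with Taf9 in wild-type and 3.52% to 10.4% in DKO, shares that rest on the uncertain counts of Taf9. The testis form of TFIIA, Gtf2a1l, reached at most 4.96% of its pair with Gtf2a1. All 9 paralogue pairs compared overlapped between the genotypes.

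**Figure D3:**
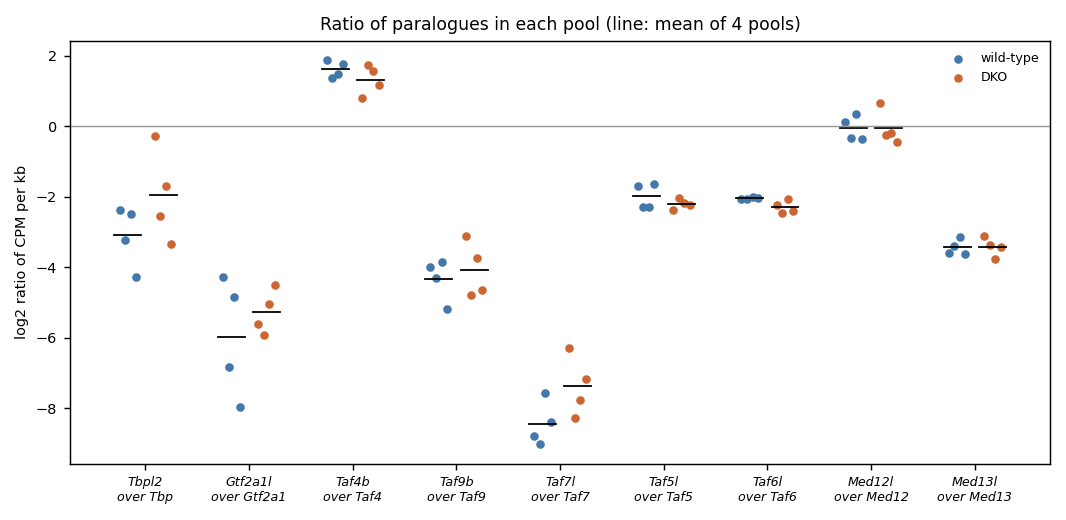
Log2 ratio of CPM per kb of exon (vertical axis) between 9 pairs of related genes in each pool, with a line at the mean of 4 pools. Values above 0 mean that the first gene is the more abundant. Taf4b lies above Taf4 in every pool, Tbpl2 below Tbp in every pool, and the wild-type and DKO pools overlap in all 9 pairs.

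The 6 TAF genes of other complexes had a median of 0.00. Taf1b, Taf1c and Taf1d belong to SL1, the selectivity factor of RNA polymerase I at ribosomal DNA. Taf1b had the lowest value, with 83.5, 82.4, 63.5 and 90.3 CPM in the wild-type pools and 29.6, 61.8, 57.5 and 65.6 CPM in the DKO pools. DKO replicate 4 lay above the lowest wild-type pool and the other DKO pools below it, and DKO replicate 1 was lowest of all. The log2 fold change was −0.58 ± 0.22 (adjusted p = 0.469 in edgeR), and −0.38 without that pool. Taf1c and Taf1d had 0.05 ± 0.34 and 0.12 ± 0.14. The SAGA subunits Taf5l and Taf6l had −0.05 ± 0.19 and −0.19 ± 0.24, the first of which turned positive when scaled by library size alone (0.01). Taf15, an RNA-binding protein of the FET family, had the highest value, 0.27 ± 0.25 (adjusted p = 0.688 in edgeR).

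The 29 Mediator genes tested had a median of −0.06, with 18 negative values, and are given by module. The 7 head genes, which contact the polymerase, were all negative with a median of −0.37, and 3 were at unadjusted p under 0.05. Of the 9 middle genes tested 8 were negative, with a median of −0.17. The 9 genes called tail here are those of the tail, which meets activators, and of its border with the head. Of them 6 were positive with a median of 0.23, and the 4 genes of the kinase module were all positive with a median of 0.19. Without DKO replicate 1 these medians were −0.24, −0.06, 0.10 and 0.10. The 7 head genes were then all negative but none was at unadjusted p under 0.05, and 6 of the 9 middle genes were negative. That library was the lowest of 8 for 5 of the 7 head genes and 5 of the 9 middle genes, and the highest for 5 of the 9 tail genes. Among all genes tested 48.8% were negative, and 4.44% were lower at unadjusted p under 0.05. The difference between modules was not tested, and other assignments of the genes between head and tail were not compared.

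The mean log2 CPM over the 7 head genes was 5.95, 5.83, 5.68 and 5.79 in the wild-type pools and 4.95, 5.51, 5.60 and 5.47 in the DKO pools. DKO replicate 1 was lowest, and the other 3 DKO pools also lay below the wild-type pools. The head was the 1 role of 9 in which these means did not overlap between the genotypes. The gap lay between wild-type replicate 3 (5.68) and DKO replicate 3 (5.60). Of all genes tested 2.55% were separated singly with lower and 2.79% with higher values in DKO. How often the mean of a set of genes separates was not tested. None of the 7 head genes was separated by itself. Each gene weighs the same in this mean, also Med18, which had the fewest counts of the head and 1.12 to 9.07 CPM. The separation rests on Med18: without it the mean of wild-type replicate 3 lies below those of DKO replicates 3 and 4, and the genotypes overlap. In wild-type replicate 3 Med17 and Med20 measured 26.2 and 38.6 CPM. The 2 genes measured 32.8 and 41.5 CPM in DKO replicate 3, and 27.5 and 46.4 CPM in DKO replicate 4. For the 9 tail genes the same mean was 5.88, 5.94, 5.88 and 5.81 in wild-type and 6.23, 5.88, 6.05 and 6.01 in DKO.

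Med18 and Med20 encode a pair that forms the movable part of the head. Med20 measured 61.4, 53.9, 38.6 and 58.1 CPM in the wild-type pools and 28.5, 34.9, 41.5 and 46.4 CPM in the DKO pools, with DKO replicates 1 and 2 below all wild-type pools and the other 2 above wild-type replicate 3. Its log2 fold change was −0.49 ± 0.20 (adjusted p = 0.47 in edgeR). Part of its exon bases, 21.4%, is shared with a gene on the other strand and 7.0% with Gm20517 on the same strand. Med18 measured 9.07, 7.86, 8.62 and 3.26 CPM in the wild-type pools and 1.12, 4.92, 5.13 and 2.67 CPM in the DKO pools, with DKO replicates 1 and 4 below all wild-type pools. Med18 had a log2 fold change of −1.06 ± 0.43 (adjusted p = 0.471 in edgeR), the lowest of all members, and −0.77 without DKO replicate 1.

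Med17, around which the head is built, and Med8, which tethers the pair to it, had −0.39 ± 0.20 and −0.37 ± 0.17 (adjusted p = 0.494 and 0.482 in edgeR). Med8 stood at 104 to 133 CPM in wild-type and at 66.1, 108, 94.2 and 106 CPM in DKO, with 2 DKO pools inside the wild-type range. Med11, Med6 and Med22 had −0.28 ± 0.16, −0.21 ± 0.17 and −0.08 ± 0.16, and for Med11 and Med6 DKO replicate 1 was the lowest library by more than 25 CPM.

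In the middle module Med21 was the one gene at unadjusted p under 0.05. Its partner Med7 had −0.13 ± 0.14, with 158 to 182 CPM in wild-type and 136 to 184 CPM in DKO. A difference between the fold changes of the 2 genes was not tested. Med14, the backbone that joins all modules, had −0.04 ± 0.16, and Med1, the partner of nuclear receptors, −0.00 ± 0.14. Med4, Med9, Med19 and Med31 had values from −0.25 to −0.17. Med26, which links Mediator to elongation factors, was the only middle gene with a positive value, 0.29 ± 0.22 (adjusted p = 0.617 in edgeR), and 0.14 without DKO replicate 1.

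Med10 was the one member below the filter, with counts of 5, 3, 8 and 9 in wild-type and 0, 9, 12 and 4 in DKO. Of its annotated exon bases 92.8% lie opposite another gene, Gm26819. Its value is not read as the level of the RNA.

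In the tail, Med25, a target of activators, had the smallest p, 0.47 ± 0.22 (adjusted p = 0.489 in edgeR). It measured 9.28, 10.5, 8.62 and 9.39 CPM in the wild-type pools and 15.5, 10.9, 10.5 and 15.4 CPM in the DKO pools. DKO replicates 1, 2 and 4 lay above all wild-type pools, and DKO replicate 3 was level with the highest of them, replicate 2. Med30 had the highest value, 0.47 ± 0.34, with 117, 90.4, 155 and 56.01 CPM in the wild-type pools and 262, 80.1, 133 and 104 CPM in the DKO pools. DKO replicate 1 alone lay above the wild-type range, and without it the log2 fold change was 0.01. Med27 and Med28 had 0.37 ± 0.19 and 0.23 ± 0.15, and 0.14 and 0.10 without DKO replicate 1. Med15, Med23 and Med24 had −0.06, −0.00 and 0.08. Med29 had the lowest value of the tail, −0.18 ± 0.16. Med16 lies 1.02 Mb from Gadd45b on GRCm38, and its value was 0.23 ± 0.35.

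The kinase module, which restrains Mediator when bound, had values of 0.19 ± 0.34 for Med12, 0.20 ± 0.31 for Med12l, 0.16 ± 0.15 for Med13 and 0.21 ± 0.22 for Med13l (adjusted p of 0.696 or more in edgeR). Med12 measured 3.37, 2.85, 2.77 and 4.29 CPM in the wild-type pools and 2.82, 2.99, 6.01 and 3.29 CPM in the DKO pools, and only DKO replicate 3 was above the wild-type range. Without that pool the values of Med12 and Med12l were −0.13 and −0.02, and that of Med13l was −0.01 in limma-voom. Per kb, Med12l made up 42.3% to 61.3% of its pair with Med12 over the 8 pools, and Med13l 6.86% to 10.4% of its pair with Med13. Its partners Cdk8, Cdk19 and Ccnc had a median of 0.03, and Ccnc, the cyclin, measured 282, 256, 284 and 308 CPM in the wild-type pools and 216, 313, 282 and 266 CPM in the DKO pools.

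**Figure D4:**
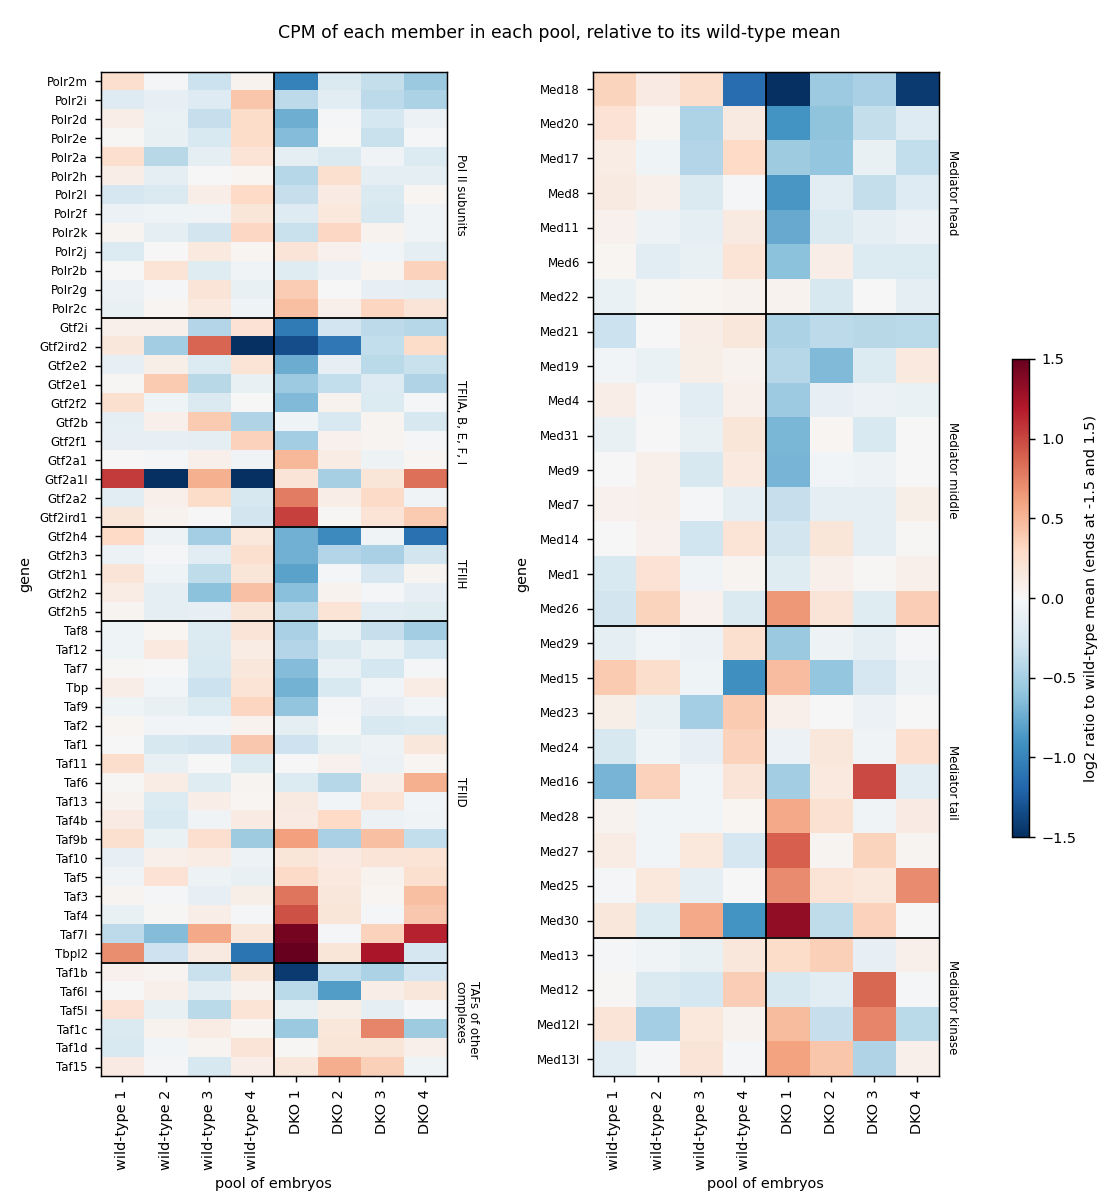
Level of each of 82 tested protein-coding members in each pool (columns) as the log2 ratio of its CPM to the wild-type mean, with genes (rows) grouped by role and ordered by fold change within a role. Blue is lower and red is higher than the wild-type mean, and the colour scale ends at −1.5 and 1.5. DKO replicate 1 is the lowest library for 33 of 83 tested members and the highest for 20.

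DKO replicate 1 was the lowest of the 8 libraries for 33 of 83 members (39.8%) against 25.0% of all genes tested, and the highest for 20 (24.1%) against 27.1%. Wild-type replicate 4 was the highest for 28 members (33.7%) against 17.5% of all genes. These 2 libraries therefore held the extremes more often than the other 6, among the members and among all genes. Over the 83 members tested, the mean log2 CPM was 6.13, 6.06, 6.05 and 6.10 in wild-type and 5.94, 6.02, 6.09 and 6.05 in DKO (6.08 ± 0.037 and 6.03 ± 0.063, SD, n = 4 each), and the genotypes overlapped.

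Levels were compared between genes per kb of annotated exon. The highest in wild-type was Polr2d, at 725 ± 132 CPM per kb (SD, n = 4), followed by Taf9 at 659 ± 114, Med29 at 294 ± 36.6, Polr2j at 283 ± 28.1 and Taf7 at 276 ± 31.5. The place of Taf9 is uncertain, since it shares 73.8% of its exon bases with Ak6 on the same strand. Polr2d and Taf9 differed by less than the SD of either, as did Med29, Polr2j and Taf7 among themselves. In DKO the corresponding values were 610.3 ± 126, 584 ± 99.5, 259 ± 40.4, 288 ± 28.6 and 233 ± 41.8 CPM per kb. The largest polymerase subunit, Polr2a, stood at 4.32 ± 0.901 CPM per kb in wild-type, rank 64 of 84. The highest levels of the other roles in wild-type were 211 ± 20.8 CPM per kb for Med31 in the Mediator middle, 199 ± 23.4 for Med6 in the head, 174 ± 23.1 for Gtf2f2, 129 ± 22.9 for Gtf2h1, 77.5 ± 9.49 for Taf1d and 18.01 ± 1.54 for Med13. The other kinase module genes lay lower than Med13, with Med12 at 0.431 ± 0.0908, Med12l at 0.415 ± 0.0839 and Med13l at 1.67 ± 0.174 CPM per kb. The TFII-I family also lay low, with Gtf2ird2 at 0.416 ± 0.267 CPM per kb. Libraries were made from polyA RNA, and levels per kb depend on how evenly a transcript is covered. The length used counts every annotated exon base of a gene, which can exceed the length of its RNA. It was 1015 bases for Polr2d, 4038 for Taf12 and 13576 for Tbp, and the ranks depend on it.

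**Figure D5:**
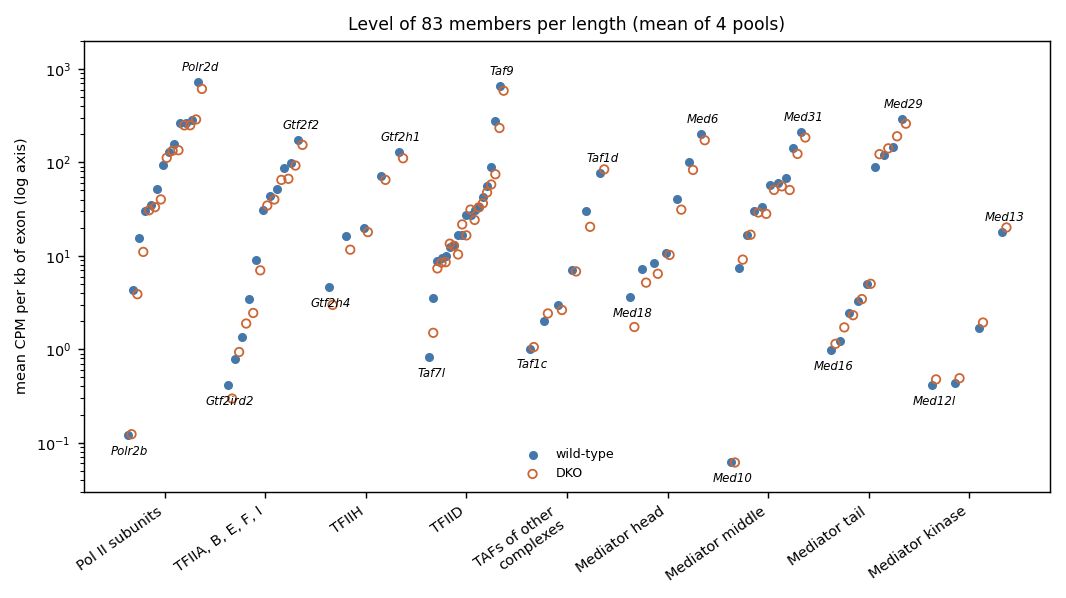
Mean level of 83 protein-coding members in CPM per kb of exon (vertical axis, log scale) by role, with filled points for wild-type and open points for DKO (mean of 4 pools each). The highest and lowest gene of each role is named, and the highest wild-type level is 725 for Polr2d. The points of Med10 and Polr2b show deposited counts that are not read as RNA levels.

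The other genes of the pathway were taken from 9 lists of partners with 94 genes in the tables, 92 of them tested. No gene of these lists passed edgeR's adjusted p of 0.05. The pools did not overlap in 4 genes with lower and 1 with higher values in DKO, against 2.55% and 2.79% of all genes tested. At unadjusted p 1 of the 92 was higher and 8 were lower in DKO, 9.78% in all. Among all genes tested 5.79% were higher and 4.44% lower, 10.2% in all. The median log2 fold change was −0.11, and −0.08 without DKO replicate 1. Negative values were found in 60 of 92 (65.2%), against 48.8% of all genes. All but 1 of 11 RNA polymerase III subunits had negative values, with a median of −0.32 (−0.17 without DKO replicate 1). Among them Polr3k measured 507, 448, 460.0 and 532 CPM in the wild-type pools and 261, 440.5, 342 and 355 CPM in the DKO pools. Its pools did not overlap, and its log2 fold change was −0.48 ± 0.16 (adjusted p = 0.469 in edgeR). The 8 RNA polymerase I subunits had a median of −0.05, which turned to 0.06 without DKO replicate 1, the lowest library for 7 of the 8. Polr1e had −0.30 ± 0.19, and −0.14 without that pool.

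Among the 26 tested pausing and elongation factors the median was −0.12. Ccnt2, a cyclin of the elongation kinase P-TEFb, measured 85.4, 80.9, 80.1 and 78.98 CPM in the wild-type pools and 65.1, 69.2, 58.5 and 55.04 CPM in the DKO pools. All DKO pools lay below the wild-type pools, which lay within 7 CPM of each other, and the log2 fold change was −0.39 ± 0.14 (adjusted p = 0.469 in edgeR). The 10 kinases and phosphatases of the C-terminal repeats had a median of 0.16 (0.04 without DKO replicate 1), with the repeat-binding protein gene Rprd1a at −0.45 ± 0.19. Of the 6 genes for polymerase assembly and import 5 were negative, with a median of −0.19 (−0.12 with 4 negative without DKO replicate 1). Gpn1, a GTPase of that path, had −0.32 ± 0.14, and all its DKO pools lay below the wild-type pools. The 16 SAGA genes without a TAF symbol had a median of −0.08. Of these Tada1 measured 53.7, 86.3, 82.99 and 66.4 CPM in the wild-type pools and 111, 104, 87.95 and 109 CPM in the DKO pools, higher in every DKO pool, with a log2 fold change of 0.51 ± 0.17 (adjusted p = 0.469 in edgeR). The 7 regulators and relatives of TBP had a median of −0.06 (−0.18 without DKO replicate 1), with Brf2, a TFIIB relative of RNA polymerase III, at −0.55 ± 0.24.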

How the data were processed

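RNA of 8 pools of 2-cell embryos was amplified as full-length cDNA in 11 PCR cycles and again as a library in 11 cycles, and sequenced as single reads of 85 cycles on 1 flow cell, per the labels' protocols. The authors deposited raw counts for each gene and library. STAR 2.5.2b, featureCounts 1.5.1, DESeq2 1.18.1, FastQC 0.11.5 and bcl2fastq 2.19.1 and the builds NCBIM37 and mm9 are listed, per the submitters' processing notes. Values of genes that overlap or have near-identical copies are uncertain, since neither the strand setting nor the treatment of shared reads is given in the sources used here. PCR copies were not marked, so reads are not independent molecules.

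Symbols were matched for 32620 of 37310 identifiers, which with exon lengths and distances came from GENCODE M21 on GRCm38, whereas counting used an earlier build. Counts were tested in R 4.3.3 with edgeR 4.0.16 (filterByExpr, TMM, robust quasi-likelihood test, Benjamini-Hochberg adjustment over 14970 genes, threshold 0.05), with all 8 libraries and no covariate. CPM values are TMM-scaled, and mean log2 CPM used a prior count of 2. Pools are separate litters. Pearson's r across genes was 0.952 to 0.972 within a genotype, and no 2 libraries agreed within sampling noise. Alternatives were DESeq2 1.42.0, limma-voom 3.58.1 with quality weights, 2 other scalings, 2 other filters, a replicate block, embryos per pool as a covariate and each library left out.

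Members, roles, marker lists and partner lists were chosen with earlier results of these data known. Genes were named by a rule: in each role the smallest p, the highest and lowest fold change (mean of at least 1 log2 CPM) and the highest level per kb, members without overlap, paralogue pairs, Tbp, Tbpl2, Taf12, Polr2a, Gtf2b, Gtf2a1l and Taf4b, and the smallest p of each partner list. Other members were named after their values were seen.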

Additional observations from a re-analysis of the deposited data

Results flagged for a closer look

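Of 116 groups of 4 pools over the named genes, 3 held a pool far from the others by Dixon's test at 95%. Chance marks about 1 in 20 such groups. Med12 stood at 6.01 CPM in DKO replicate 3, against 2.82 to 3.29 CPM in the other DKO pools. Gpn1 stood at 114 CPM in DKO replicate 1, against 146 to 153 CPM. Polr1e stood at 190 CPM in DKO replicate 1, against 328 to 342 CPM.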

How the results depend on the processing

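No member passed the adjusted threshold in either direction under any of the 16 alternatives. Scaling by library size alone raised the members higher at unadjusted p from 3 to 5 (all genes from 5.79% to 7.38%) and those higher without overlap from 1 to 2 (2.79% to 3.46%), and moved the median of all genes from 0.01 to 0.07. Limma-voom gave 0 higher at unadjusted p. A minimum of 10 CPM gave 2 higher without overlap (3.12% of all genes). With a library left out, members lower at unadjusted p ranged from 4 to 13 and higher from 0 to 8. The shares of all genes ranged from 2.91% to 6.2% lower and from 2.46% to 7.32% higher. The 13 lower members were those without wild-type replicate 3, where 5.98% of all genes were lower. Members without overlap ranged from 2 to 14 lower and from 1 to 5 higher, beside 3.34% to 6.69% and 3.36% to 6.47% of all genes. The median of the members lay between −0.11 and −0.02 in all settings.

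Replicate numbers did not pair the pools: the correlation of same-numbered pools' deviations was 0.002 to 0.078. With the replicate block, 9 members were lower and 2 higher at unadjusted p (4.66% and 5.38% of all genes), and the median was −0.08.

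The log2 fold change of 10 of 57 named genes turned sign in some setting, in 19 of 905 values. In limma-voom Med13l was −0.0126, Taf5l 0.0037 and Ccnc 0.0229. With library size alone Taf5l was 0.0092, and with pool size as a covariate Taf6 was −0.1151. With a library left out the ranges were −0.2514 to 0.0294 for Gtf2b, −0.1162 to 0.872 for Gtf2a1l, −0.0052 to 0.1313 for Taf4b, −0.0774 to 0.2935 for Taf9b, −0.1685 to 0.03 for Taf5l, −0.1606 to 0.1744 for Taf6, −0.1291 to 0.3283 for Med12, −0.0244 to 0.3536 for Med12l and −0.1523 to 0.0168 for Ccnc. For these the cause was not tested, and each interval of the reported value includes 0. Gadd45a passed in DESeq2 alone (−1.10, adjusted p = 0.000676). The fewest counts over all libraries were those of Med10 (50), Polr2b (102), Med9os (276), Gtf2a1l (294), Gtf2ird2 (398) and Taf7l (471).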
